A study of Danio rerio with 6 samples.

Results

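Baseline messenger RNA signal was described in the brains of control female zebrafish of the AB strain at 12 months of age. These brains are the 3 control samples, chosen by their labels, of 6 samples in the series. They are the unexposed arm of a lead study, at 0 ppb lead acetate during an embryonic treatment window that opened less than 2 hours and closed 72 hours after fertilization, with clean water from then on. The other 3 samples, from lead-treated fish, were not used, and males were not analysed here. RNA was labelled with Cy3 and hybridised to one-colour NimbleGen oligonucleotide arrays, 1 array per sample. The labels number the samples as replicates and do not say whether a sample is the brain of 1 fish or a pool, so the arrays are called brain 1, brain 2 and brain 3 here.

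A vertebrate brain is a mixture of neurons, which signal through synaptic vesicles filled with glutamate, GABA, glycine, monoamines or peptides, and of glia. Oligodendrocytes wrap axons in myelin, microglia are the resident macrophages, and in adult fish the astrocyte role is held largely by radial glia, which line the ventricles and also serve as neural stem cells. Teleost radial glia are known for strong brain aromatase, and the fish brain keeps making neurons throughout life. Whole-brain RNA averages over all of these cells, so fewer cells of a type and less RNA per cell cannot be told apart.

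Each array held 38489 targets, each of them a gene transcript or cDNA sequence read by at most 3 probes, and 27114 probes that the files name as random. The median target intensity was 2211 in brain 1, 2164 in brain 2 and 2100 in brain 3, against medians of 230 to 253 for the random probes. The 95th percentile of the random probes served as background and lay at an intensity of 948, 1004 and 1260 in the same brains. Targets were above this background in 66.7%, 65.3% and 60.3% of cases. All levels below are log2 intensities, and a difference is a target's log2 intensity minus the log2 background of the same array, averaged over the 3 brains. Signal was called abundant at a difference of 3 or more, which is 8-fold, middling between 0 and 3, and not above the random probes at 0 or less. Here and below, above or below the random probes means above or below this 95th percentile. A target below it can still be brighter than most random probes, whose medians were 230 to 253.

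**Figure D1:**
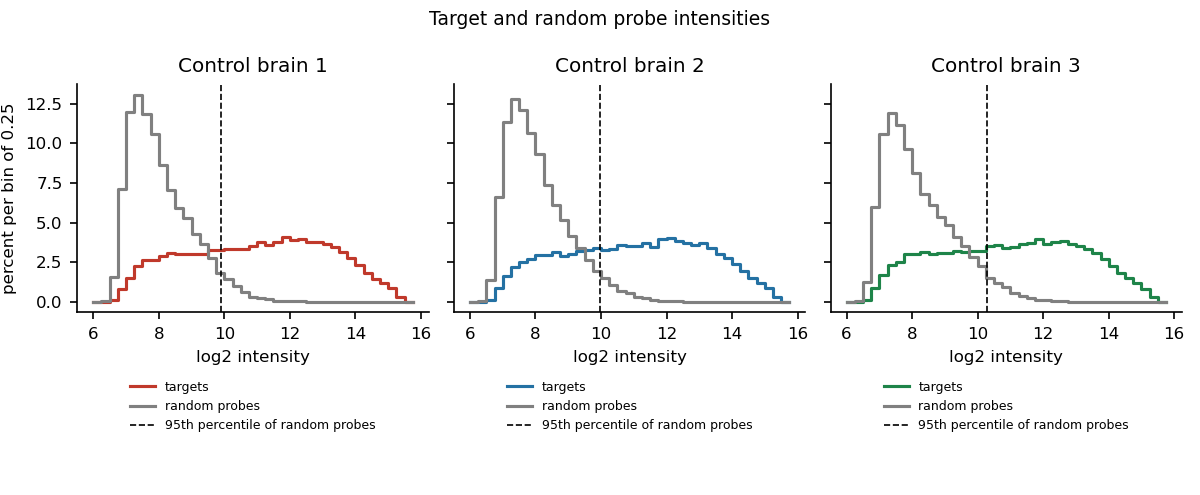
Share of targets (coloured) and of random probes (grey) in bins of 0.25 log2 intensity, in each of the 3 control brains, with the 95th percentile of the random probes as a dashed line. Targets spread over the whole scale up to about the same top in each brain, while the random probes gather near the low end, and 60.3% to 66.7% of targets lie right of the line.

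A mean above the random probes was found for 64.1% of targets. By class, 7707 targets (20.0%) were abundant, 16961 (44.1%) middling and 13821 (35.9%) not above the random probes. The limma moderated test of the 3 differences against 0, with Benjamini-Hochberg adjustment over all targets, called 22158 targets (57.6%) above the random probes and 11329 (29.4%) below. Of 13587 genes with a symbol, each represented by its brightest target, 69.9% had a mean above the random probes, 23.4% were abundant, 46.5% middling and 30.1% not above, 63.1% were called above and 23.5% below, and the median difference was 1.36. The same standard error, 0.242, was fitted for every target, so targets that differ widely among brains can pass this test: coch, described further on, had an adjusted p of 2.2e-17 by limma and of 0.39 by an ordinary one-sample test with its own variance. Signal also depends on how well a probe binds, so genes are placed by class and not ranked by RNA amount.

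Before the gene groups are described, brain 1 has to be set apart. The Pearson correlation over all targets was 0.981 between brains 2 and 3, against 0.970 and 0.973 between brain 1 and these, and the number of targets 2-fold or more apart was 1199 for brains 2 and 3, against 2081 and 1707. Over all targets with a mean above the random probes and a range of 1 log2 or more among brains, brain 1 was the highest in 937 of 1916, brain 2 in 570 and brain 3 in 409, and brain 1 was the lowest in 32.3%. A target can pass that filter on the mean through the brain where it is high. With no filter on the mean, brain 1 was highest in 1713 of 3431 targets with such a range, 4.45% of all targets. Over all 38489 targets brain 1 was highest in 35.2%, brain 2 in 36.9% and brain 3 in 27.9%. Genes of the pituitary, of vessels and meninges, of skin and of the hox clusters were among those with high values in brain 1. Counts of the lists concerned are given with and without it, and single genes whose call was lost without it are named. Brain 1 had the lowest background, so leaving it out raises the mean background for every gene. Over all 13587 genes with a symbol, the median difference went from 1.36 with brain 1 to 1.26 without it. Abundant genes went from 3176 to 2968 and genes not above the random probes from 4087 to 4310. Changes within a list are to be read beside these.

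General neuronal genes gave abundant signal in all 3 brains. Of 25 measured pan-neuronal genes 24 were called above the random probes by limma, 22 were abundant, and the median difference was 4.18. For comparison, here and in the lists below, 63.1% of all genes with a symbol were called above and 23.4% were abundant. The gene stmn2a, which encodes a microtubule regulator of growing and adult axons, had log2 values of 15.54, 15.41 and 15.39 in brains 1, 2 and 3 and a difference of 5.39. Its target lies on chromosome 16 at 11903394 to 11914387 of the Zv7 assembly. The vesicle fusion proteins snap25a (15.24 ± 0.03, SD, n = 3) and snap25b (15.04 ± 0.08, n = 3) and the neurofilament nefla (15.16 ± 0.05, n = 3) stood at nearly the same height in every brain. Other defining neuronal genes had no zebrafish symbol in the files and were read from targets named after a homologue, whose paralog is not given. The MAP2 target, for a dendritic microtubule protein, averaged 14.97 ± 0.05 (n = 3), the GAP43 target, for a growth cone protein, 15.17 ± 0.14 (n = 3), and the 4 ELAVL3 targets, for a neuronal RNA-binding protein, lay between 14.57 and 14.71 on average.

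Exceptions within the pan-neuronal list were few. The vesicle fusion regulator stxbp1b was middling at a difference of 1.55, and its paralog stxbp1a was abundant at 4.84. The parvalbumin gene pvalb5, at 8.96, 9.02 and 8.86 in brains 1, 2 and 3, was not above the random probes, while pvalb6, at a difference of 4.79, was abundant. The list held 2 genes with a range of 1 or more among 25, 8%, beside 8.87% of all genes with a symbol. These were the second neurofilament neflb, at 14.17 in brain 1 against 12.87 and 12.76 in brains 2 and 3, and the synaptophysin gene sypa, at 13.52, 12.36 and 13.08.

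The release machinery shared by synapses of all kinds was also well above background. All 26 measured synaptic vesicle genes had a mean above the random probes. Of the 26, 25 were called by limma, beside 63.1% of all genes with a symbol, and 17 were abundant, with a median difference of 3.80. The vesicle SNAREs vamp2 (15.20 ± 0.08, n = 3) and vamp1a (15.31 ± 0.09, n = 3) and the complexin cplx2 (15.39 ± 0.08, n = 3) were abundant in every brain. Over all targets of cplx2 the median difference was 2.295, which is middling. The calcium sensor syt1a averaged 14.75 ± 0.14 (n = 3), and its copy syt1b had 12.74, 11.69 and 11.11 in brains 1, 2 and 3.

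**Figure D2:**
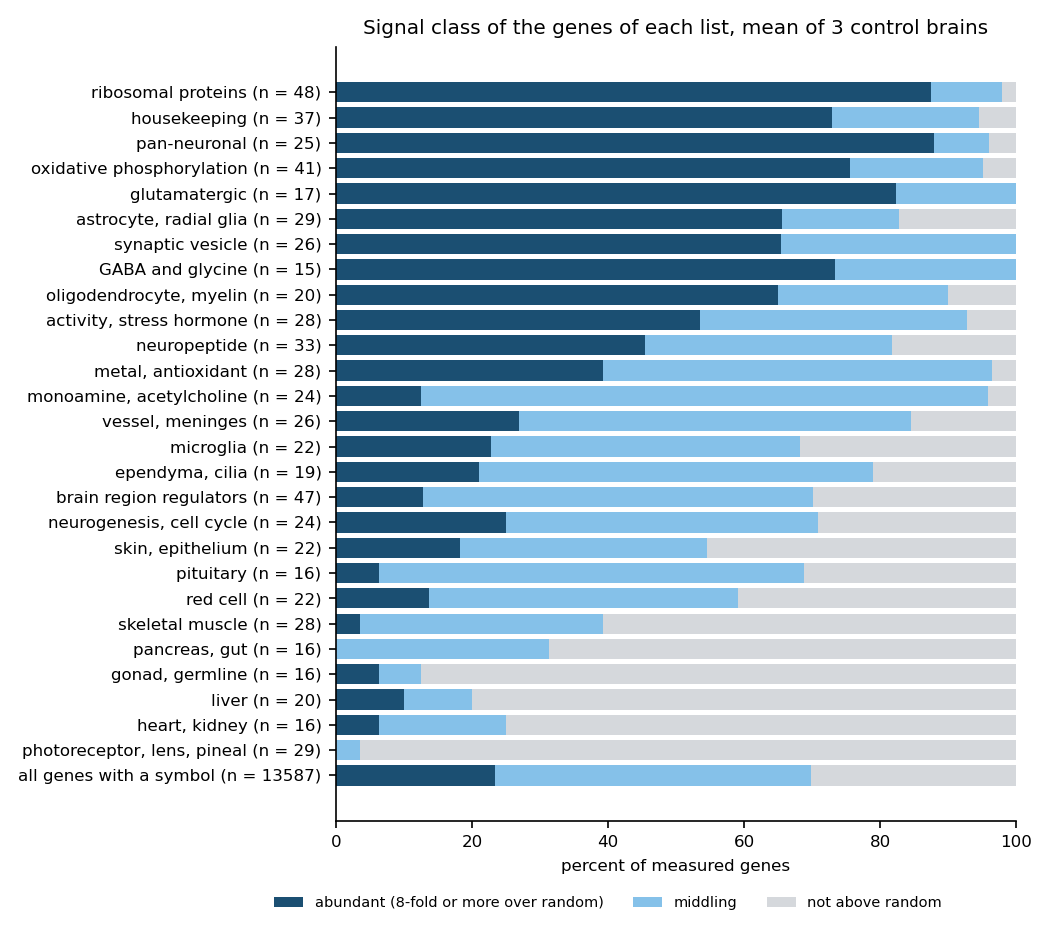
Share of measured genes of each list, and of all genes with a symbol in the lowest bar, that were abundant (dark), middling (light blue) or not above the random probes (grey), by the mean of the 3 control brains. Lists run from the highest median difference at the top, ribosomal proteins at 4.67, to the lowest, photoreceptor, lens and pineal genes at −1.23.

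Genes of glutamate neurons were measured for 17 members, all called above the random probes, beside 63.1% of all genes with a symbol. Of the 17, 14 were abundant, with a median difference of 3.93. The vesicular glutamate transporters of the midbrain and hindbrain type, slc17a6a (14.55 ± 0.15, n = 3) and slc17a6b (14.23 ± 0.18, n = 3), were abundant and even. The forebrain and cerebellum type slc17a7a had 12.72, 14.05 and 12.84 in brains 1, 2 and 3. The third type, slc17a8, was middling, with 13.12 in brain 1 against 10.74 and 11.34 in the others. The NMDA receptor subunits grin1a (14.32 ± 0.11, n = 3) and grin1b (14.79 ± 0.12, n = 3) were abundant, and the AMPA receptor subunit gria2b averaged 14.87 ± 0.12 (n = 3). The kinase camk2a, a postsynaptic enzyme of excitatory synapses, had 15.53, 14.55 and 15.20, with brain 2 the lowest.

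Of 15 measured GABA and glycine genes 14 were called above the random probes, beside 63.1% of all genes with a symbol. Of the 15, 11 were abundant, with a median difference of 3.33. The GABA-synthesizing enzyme gad2 gave 15.32, 15.35 and 15.37 in brains 1, 2 and 3, and gad1b gave 13.40, 14.00 and 14.18. Over all targets of gad1b the median difference was middling. The vesicular transporter of inhibitory neurons, slc32a1, averaged 14.69 ± 0.15 (n = 3) and the GABA reuptake carrier slc6a1a 14.52 ± 0.30 (n = 3). The neuronal glycine transporter slc6a5, a marker of glycinergic cells of hindbrain and spinal cord, was the 1 member with a range above 1. It stood at 14.49 in brain 1, against 12.97 and 13.23 in brains 2 and 3, and its second target showed the same order of brain 1 over the others, at 13.90, 12.88 and 13.23. Another target of the gene was not above the random probes, at 8.45, 8.23 and 8.50.

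Genes of the monoamine and acetylcholine systems, which serve small groups of cells, were mostly middling. Of 24 measured 20 were called above, beside 63.1% of all genes with a symbol. Of the 24, 3 were abundant, beside 23.4%, and 20 middling, beside 46.5%, with a median difference of 2.03. Tyrosine hydroxylase, th, the rate-limiting enzyme of dopamine and noradrenaline synthesis, had 11.86, 12.42 and 12.03 in brains 1, 2 and 3, a difference of 2.05. The neuronal tryptophan hydroxylase tph2, which starts serotonin synthesis, had 13.51, 12.86 and 12.91, a difference of 3.04. The acetylcholine-degrading enzyme ache was abundant at 14.72 ± 0.15 (n = 3).

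Other members of the list were spread over the classes. The noradrenaline-forming enzyme dbh had 12.05, 10.87 and 10.09 in brains 1, 2 and 3, the last below the background of that array, and its difference was 0.95 with brain 1 and 0.34, no longer called, without it. The dopamine transporter target named SLC6A3 averaged 10.64 ± 0.36 (n = 3), a difference of 0.59, and the serotonin neuron regulator fev had a difference of 0.11. The target named CHAT, for the acetylcholine-forming enzyme, had 13.65, 12.80 and 12.31, a difference of 2.87. The vesicular acetylcholine transporter slc18a3b was not above the random probes, at −0.59. In this list 7 of 24 genes, 29.2%, had a range of 1 or more, beside 8.87% of all genes with a symbol. The widest was that of adrb1, with 12.12, 14.13 and 12.65.

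Neuropeptide genes were divided. Of 33 measured 27 were called above the random probes, beside 63.1% of all genes with a symbol. Of the 33, 15 were abundant, 12 middling and 6 not above. Genes of the peptide granules were abundant: cpe, which trims peptide precursors, averaged 15.36 ± 0.06 (n = 3), scg2b 14.99 ± 0.12 (n = 3) and chga had 15.20, 14.80 and 14.84 in brains 1, 2 and 3. Among precursors, adcyap1b (15.18 ± 0.12, n = 3), trh (14.23, 14.08 and 14.26) and crhb (13.68, 13.69 and 13.95) were abundant and even. Somatostatin sst1.1 was middling at 12.54 ± 0.11 (n = 3).

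At the low end, the wakefulness peptide gene hcrt had 8.89, 9.08 and 9.60 and was below the background in every brain. The precursors gnrh3, grp, sst2 and adcyap1a were also not above the random probes, with differences of −0.35, −1.73, −2.09 and −1.30. A target below the random probes does not show that its transcript was absent.

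Several peptides of hypothalamic cells were lowest in brain 1. The vasopressin-type gene avp had 12.29 in brain 1, against 14.05 and 13.58 in brains 2 and 3. The target named OXT, for the oxytocin-type precursor, had 11.22, 15.54 and 14.62. The appetite peptide npy had 13.33, 14.63 and 14.03, cart2 had 12.40, 13.93 and 13.76, and the melanin-concentrating hormone gene pmch had 8.23, 10.71 and 10.72. Over the whole list 17 of 33 genes were lowest in brain 1, beside 4564 of 13587 genes with a symbol, and the median deviations of brains 1, 2 and 3 from the 3-brain mean were −0.09, −0.05 and 0.14. Without brain 1, 28 of 33 genes had a mean above the random probes and 15 were abundant. Brain 1 also held high signal of pituitary and hox genes, given further on, whose part in these values was not tested.

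Radial glia and astrocyte genes were mostly abundant, in 19 of 29 measured genes, with a median difference of 3.86. Of the 29, 24 were called above the random probes, beside 63.1% of all genes with a symbol. Glutamine synthetase glula, which recycles glutamate, averaged 15.03 ± 0.15 (n = 3), the calcium-binding s100b 14.99 ± 0.17 (n = 3), the lipid carrier fabp7a 14.67 ± 0.32 (n = 3) and the connexin gja1b 15.19 ± 0.06 (n = 3). The intermediate filament gene gfap had 14.10, 14.28 and 13.55 in brains 1, 2 and 3. Brain aromatase cyp19a1b, which makes estrogens in radial glia, had 13.97, 14.46 and 14.96, and all 3 of its probes were highest in brain 3. The target named SLC1A2, for the glial glutamate transporter, averaged 15.16 ± 0.13 (n = 3).

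Not every glial symbol was above background. The copy slc1a2a was at −1.96 and the water channel gene aqp4 at −0.91, below the random probes on each array, and fabp7b was at −0.55. The glutamate carrier slc1a3a had 13.38, 12.27 and 11.77. The connexin gene gjb8 had 13.52 in brain 1 and was below background in the others, at 9.02 and 9.23. The 3 probes of this target did not all place the same brain highest. With the median of its own probes the difference was 0.363 and no longer called. The second gjb8 target had 12.84, 7.97 and 7.84 in brains 1, 2 and 3.

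Myelin genes were strongly represented. Of 20 measured oligodendrocyte genes 18 were called above the random probes, beside 63.1% of all genes with a symbol. Of the 20, 13 were abundant, with a median difference of 3.29. Myelin protein zero, mpz, which fish use in central myelin, had 15.38, 15.31 and 15.25 in brains 1, 2 and 3, the proteolipid plp1b 15.28, 15.35 and 15.38, and the myelin-associated glycoprotein mag 14.96, 15.22 and 14.99. The 3 targets named MBP, for myelin basic protein, averaged 13.87, 15.06 and 15.09. The lineage regulator target OLIG2 averaged 14.59 ± 0.24 (n = 3) and SOX10 12.37 ± 0.46 (n = 3). The second proteolipid gene plp1a was middling at 11.04 ± 0.22 (n = 3), and the precursor receptor pdgfra, at 9.49, 8.48 and 7.97, was not above the random probes. Brain 1 was the highest in 14 of 20 genes, beside 36.8% of all genes with a symbol. Its median deviation was 0.21, against −0.11 and −0.08 in brains 2 and 3, and without brain 1 there were 11 abundant genes.

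Microglial genes had the lowest median difference of the 3 glial lists. Of 22 measured 15 (68.2%) were called above the random probes, beside 63.1% of all genes with a symbol. Of the 22, 5 were abundant and 7 not above, with a median difference of 1.58, near the 1.36 of all genes with a symbol. The apolipoprotein apoeb, which microglia and other glia express, had 14.90, 14.55 and 13.82 in brains 1, 2 and 3, but its second target averaged 1.99 below the random probes, at 7.74, 8.33 and 8.10. The target named LCP1, for a leukocyte actin-bundling protein, averaged 13.16 ± 0.24 (n = 3). The macrophage regulators irf8 and spi1b were middling at 1.67 and 1.49. The macrophage gene mpeg1.1 lay on the background, at 10.24, 10.15 and 9.65, and the receptor csf1ra below it, at 8.72, 9.40 and 7.76. The inflammatory cytokines tnfa, tnfb and il1b were below the random probes in every brain. The complement gene c1qa had 11.63, 11.14 and 10.46, and 1 of 22 genes in the list was highest in brain 3, beside 3787 of 13587 genes with a symbol.

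**Figure D3:**
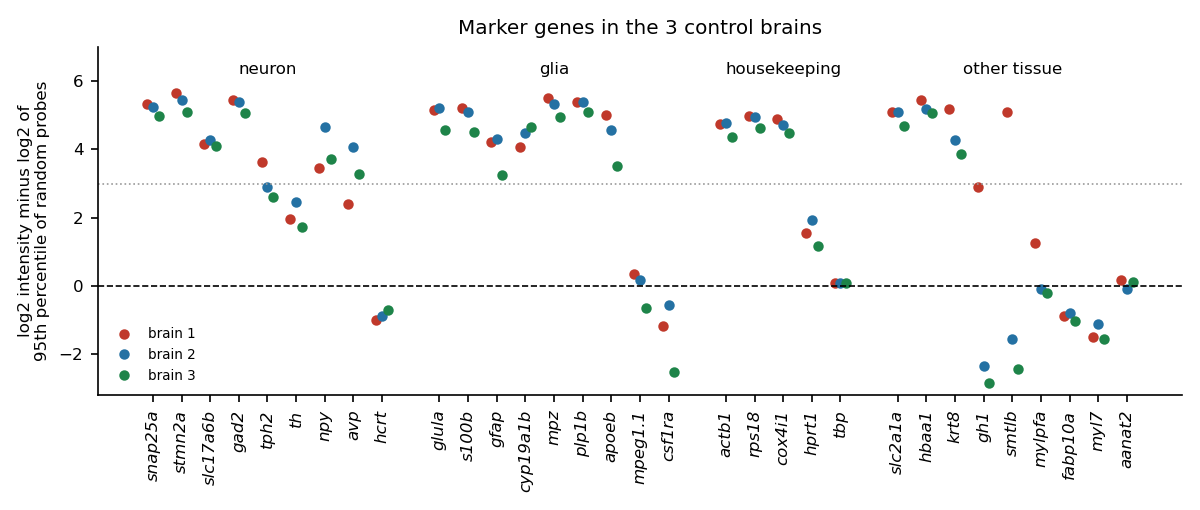
Log2 intensity minus the log2 95th percentile of the random probes of the same array, for marker genes of neurons, glia, general cell function and other tissues, 1 point for each of the 3 control brains. The dashed line is that 95th percentile and the dotted line the bound of abundant signal at 3. Smtlb and gh1 stand above the dashed line in brain 1 and below it in brains 2 and 3.

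Genes of neurogenesis and the cell cycle lay near the middle of the array. Of 24 measured 14 (58.3%) were called above, beside 63.1% of all genes with a symbol, 6 were abundant and 7 not above, with a median difference of 0.83. The abundant ones were cytoskeletal and transcription factor genes of young neurons and precursors, stmn1b (15.16 ± 0.10, n = 3), tubb2b (14.89 ± 0.04, n = 3), sox4a (14.14 ± 0.10, n = 3), sox3, msi1 and sox11b. The target named NEUROD1, for a regulator of neuronal differentiation, had 13.69, 14.51 and 13.85 in brains 1, 2 and 3. The replication clamp pcna was middling at 11.97 ± 0.09 (n = 3), and the precursor regulator ascl1a was at 10.87 ± 0.15 (n = 3). Mitotic genes were at or under the background, with ccna2 at 0.03, ccnb2 at −0.27, ccnb1 at −1.43 and plk1 at −1.64. In this list 1 of 24 genes, 4.17%, ranged by 1 or more, beside 8.87% of all genes with a symbol. Its median SD among brains was 0.18, near the 0.20 of all genes with a symbol.

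Regulators that mark brain regions were the neural list with the most genes of wide range, 21 of 47, 44.7%, beside 8.87% of all genes. Of the 47, 30 (63.8%) were called above the random probes, beside 63.1% of all genes with a symbol. The abundant ones numbered 6, beside 23.4% of all genes, and the median difference was 1.05, and 0.75 without brain 1. The granule cell and forebrain regulator pax6b had 14.58, 15.20 and 14.77 in brains 1, 2 and 3, zic2a had 14.26, 14.81 and 14.16, and the cerebellar synapse organizer cbln1 averaged 13.86 ± 0.06 (n = 3). The other targets of pax6b were middling, at differences of 0.13 to 2.41. The isthmus gene en2a was middling at 10.97 ± 0.21 (n = 3), and otx2a was below the random probes at −1.52.

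The brains differed along this list in opposite ways for the hox genes, which pattern hindbrain and spinal cord, and for the other genes, a division made after the values were seen. Of 17 hox genes 15 were highest in brain 1, beside 36.8% of all genes with a symbol, and the median deviations of brains 1, 2 and 3 were 0.63, −0.31 and −0.32. Hoxb3a had 13.43, 11.40 and 12.16, hoxa5a 13.28, 11.78 and 11.19, and hoxb5a 13.70, 12.47 and 11.90. The median difference to the random probes of the hox genes was 1.00 with brain 1 and 0.43 without it, and 0 of 17 were abundant either way. Hoxc6a was no longer called without brain 1, at a difference of 0.433. The posterior gene hoxa13a, which is used in the tail, was not above the random probes at 9.33 ± 0.13 (n = 3).

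Of the other 30 region genes 18 were lowest in brain 1 and 18 highest in brain 2. Over all 13587 genes with a symbol, 4564 were lowest in brain 1 and 4798 highest in brain 2. The forebrain and midbrain gene otx2b had 11.07 in brain 1, against 13.43 and 12.93 in brains 2 and 3, and its second target had 11.02, 13.14 and 12.70. The dorsal midbrain gene pax7a had 12.35, 13.65 and 13.20, the pallial gene emx2 11.18, 12.23 and 11.89, and the isthmus signal fgf8a 10.43, 12.10 and 11.12. Their summed intensity was 135629 in brain 1, 188569 in brain 2 and 158463 in brain 3, while that of the hox genes was 74497, 30403 and 27782. Which parts of the hindbrain and spinal cord each dissection included is not given in the labels, and its part in these values was not tested.

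Housekeeping and cytoskeletal genes were mostly abundant, with a median SD among brains of 0.09 over 37 measured genes, against 0.14 over all abundant targets and 0.20 over all genes with a symbol. The brightest of them, such as gapdhs and hspa8, lay near the top of the scale, where the highest target intensity of an array was 58051 to 60240. Whether differences among brains are compressed there was not tested. Of the 37, 27 were abundant, and the median difference was 4.63. Limma called 31 of the 37 above the random probes, beside 63.1% of all genes with a symbol. Beta actin actb1 had 14.64, 14.75 and 14.66 in brains 1, 2 and 3, the glycolytic gapdhs 15.32, 15.51 and 15.37, and the chaperone hspa8 15.29, 15.34 and 15.41. Common reference genes of lower signal were hprt1, of purine salvage, at 11.60 ± 0.27 (n = 3), and tbp, the TATA-binding protein, at 9.97, 10.06 and 10.37, which is 0.08 from the random probes. The third target of actb1 had 11.43, 11.39 and 12.21, so targets of one gene can fall in different classes.

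Ribosomal proteins were the list of highest median, 4.67, with 42 of 48 abundant. A range of 1 or more was seen in 1 of the 48, 2.08%, beside 8.87% of all genes with a symbol. Of the 48, 45 were called above, beside 63.1% of all genes with a symbol. Rps18 averaged 14.91 ± 0.03 (n = 3), rpl13a 15.11 ± 0.07 (n = 3) and rps2 15.42 ± 0.05 (n = 3). The exception was rpsa, at 7.94, 7.70 and 7.30, below the background in every brain. Rps2 likewise had a second target at 7.82, 7.90 and 8.22, and rplp0 had targets at differences of 0.06 and −2.57. Whether such low values come from the targets or from the amount of a transcript was not tested. Among 3164 genes with several targets, 970 (30.7%) had targets on both sides of the random probes and 225 (7.11%) had both an abundant target and one not above.

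Genes of oxidative phosphorylation, the mitochondrial chain that supplies neurons with ATP, were called above the random probes in 39 of 41 cases. The share was 63.1% over all genes with a symbol. Of the 41, 31 were abundant, with a median difference of 4.11. The ATP synthase subunits atp5l (15.29 ± 0.02, n = 3) and atp5f1b (15.05 ± 0.15, n = 3) and the cytochrome oxidase subunits cox6b1 (15.01 ± 0.12, n = 3) and cox4i1 (14.74 ± 0.05, n = 3) were abundant. The complex I gene ndufs8a had 10.81, 11.54 and 12.54, the widest range in the list, and cox5b2 had 13.37, 12.06 and 12.58. Sdhc and ndufb5 were not above the random probes.

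Over all genes with a symbol, the 10 highest means belonged to slc25a5, stmn2a, clstn1, cd9b, ndrg3a, rps2, REEP1 (2 of 2), rpl21, clta and gapdhs. Their differences began at 5.35 and lay closer together than the standard error, so they have no order. They include the mitochondrial ADP/ATP carrier slc25a5 (15.32, 15.55 and 15.51), the neuronal cadherin-type protein clstn1 (15.46, 15.44 and 15.44), the tetraspanin cd9b (15.52, 15.30 and 15.48) and the clathrin light chain clta (15.41, 15.40 and 15.38).

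Immediate early, clock and glucocorticoid-responsive genes were called above the random probes in 25 of 28 cases, beside 63.1% of all genes with a symbol. Of the 28, 15 were abundant, with a median difference of 3.28. The activity gene fosab had 13.65, 13.89 and 13.79 in brains 1, 2 and 3, npas4a 13.76, 14.18 and 13.92, and the neurotrophin bdnf 14.50 ± 0.09 (n = 3). Several genes that respond to glucocorticoids in vertebrates were lowest in brain 1. Fkbp5, a receptor co-chaperone, had 12.76 in brain 1, against 15.46 and 14.91 in brains 2 and 3, a range of 2.70. The transcription factor klf9 had 9.56, 12.62 and 11.63, with all 3 probes lowest in brain 1, and tsc22d3 had 12.69, 13.77 and 13.42. The clock genes per1a, at 11.03, 11.88 and 11.71, and nr1d1, at 9.31, 11.19 and 10.09, were also lowest there. Over the list 17 of 28 genes were lowest in brain 1 and 20 were highest in brain 2. Among all 13587 genes with a symbol, 4564 were lowest in brain 1 and 4798 highest in brain 2. Another glucocorticoid-responsive gene, sgk1, had 13.70, 13.72 and 13.31 and did not share that order. The time of day of sampling is not given in the labels, and its part in these values was not tested.

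Metal-binding and antioxidant genes were called above in 25 of 28 cases, beside 63.1% of all genes with a symbol. Of the 28, 11 were abundant, with a median difference of 2.49. The metal-storage protein mt2 had 13.08, 13.69 and 13.46 in brains 1, 2 and 3, superoxide dismutase sod1 averaged 14.09 ± 0.12 (n = 3), the glutathione-forming gclc 14.22 ± 0.19 (n = 3) and the copper oxidase cp had 14.62, 14.86 and 13.73.

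Genes of cells in and around the brain came next. Among ependyma and cilia genes 13 of 19 (68.4%) were called above the random probes, beside 63.1% of all genes with a symbol. Of these genes 4 were abundant, and the median difference of the list was 1.44. The cilia regulator foxj1a had 10.67, 11.59 and 10.29, and the axonemal cfap52 had 10.28, 11.46 and 10.21, each highest in brain 2. Without brain 2 their differences were 0.39 and 0.15 and neither was called. Brain 2 was highest in 12 of 19 members, beside 4798 of 13587 genes with a symbol. The blood-brain barrier glucose transporter slc2a1a was abundant and even at 15.01 ± 0.05 (n = 3). Genes of vessels and meninges, slc2a1a among them, were mostly middling, with 7 of 26 abundant and a median difference of 1.67. Of the 26, 22 were called above, beside 63.1% of all genes with a symbol. Of these 26 genes 23 were highest in brain 1, beside 36.8% of all genes with a symbol. The endothelial cadherin cdh5, at 11.97, 11.32 and 11.07, and the collagen col1a1a, at 12.26, 11.15 and 9.91, show the pattern. The difference of col1a1a was 1.05 with brain 1 and 0.39, no longer called, without it. Their summed intensity was 208770, 146113 and 132574 in brains 1, 2 and 3, and without brain 1 there were 4 abundant genes and a median of 1.30.

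Red cell genes fell into all 3 classes. Alpha globin hbaa1 had 15.33, 15.17 and 15.36 in brains 1, 2 and 3, beta globin ba1l 13.63, 14.57 and 14.74, and the heme-forming alas2 averaged 12.90 ± 0.18 (n = 3), middling at a difference of 2.84, as was the membrane skeleton gene epb41b at 2.90. Of 22 measured 10 (45.5%) were called above, beside 63.1% of all genes with a symbol, and 3 were abundant and 9 not above. A range of 1 or more was seen in 1 of the 22, 4.55%, beside 8.87% of all genes with a symbol. The summed intensity of the list was 132756, 122227 and 130479 in brains 1, 2 and 3.

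Markers of other organs checked the labelled tissue. Photoreceptor, lens and pineal genes were not above the random probes in 28 of 29 cases, and limma called 23 of them below the random probes. Among all genes with a symbol, 30.1% were not above the random probes and 23.5% were called below. The pineal melatonin enzyme aanat2, at 10.07, 9.88 and 10.42, lay on the background. Liver genes were not above in 16 of 20 cases, with the defining fabp10a at 9.14 ± 0.13 (n = 3) and apoa1a at 9.67 ± 0.18 (n = 3). The abundant members were cp and the transferrin tfa (14.13 ± 0.11, n = 3), and the cells that gave their signal were not tested. Gonad genes were not above in 14 of 16. Of the gonad genes, sycp3 was abundant, at 13.34, 13.29 and 13.21 in brains 1, 2 and 3, but its other targets had differences of 0.18 and −0.68. Heart and kidney genes were not above in 12 of 16, with myl7 at 8.66 ± 0.23 (n = 3), and 1 was abundant at a difference of 3.91. Pancreas and gut genes were not above in 11 of 16. Insulin ins, at 10.88, 10.78 and 11.30, was middling.

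Skeletal muscle genes were not above in 17 of 28 cases, beside 30.1% of all genes with a symbol. Acta1b had 10.44, 9.54 and 9.58 in brains 1, 2 and 3, ckma 10.73, 9.84 and 9.31, and mylpfa 11.15, 9.88 and 10.09. Each was above the background in brain 1 alone. Without brain 1 the list had 19 of 28 genes not above, beside 4310 of 13587 genes with a symbol. Skin and epithelial genes were called above in 11 of 22 cases, 50%, beside 63.1% of all genes with a symbol. Keratin krt8 was abundant, at 15.06, 14.26 and 14.15, krt18a.1 had 14.23, 13.24 and 13.18, and icn, a calcium-binding gene, 14.46, 13.36 and 13.08. The keratins krt4 and krt5 were no longer called without brain 1, at differences of 0.56 and 0.09. Of the 22, 15 were highest in brain 1, beside 36.8% of all genes with a symbol. The summed intensity was 119124, 62512 and 67832, and the median difference was 0.47 with brain 1 and 0.21 without it.

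Hormone genes of the pituitary, the gland that hangs from the hypothalamus, stood highest in brain 1. Of 16 measured pituitary genes 10 ranged by 1 or more, 62.5%, beside 8.87% of all genes with a symbol. Brain 1 was highest in 10 of the 16, beside 36.8% of all genes. The fish hormone somatolactin beta, smtlb, had 14.98 in brain 1, against 8.40 and 7.88 in brains 2 and 3, both under the background. Its target lies on chromosome 10 at 36141369 to 36148100 of Zv7, and each of its 3 probes had the same order of brain 1 over the others, with 15.28, 14.59 and 14.77 in brain 1 and 7.49 to 8.77 in the others.

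Other hormones followed the same order. Growth hormone gh1 had 12.78, 7.63 and 7.44, somatolactin alpha smtla 13.28, 9.17 and 10.00, luteinizing hormone lhb 11.53, 7.71 and 8.56, and thyrotropin tshba 10.49, 8.65 and 8.92. The pituitary regulator pou1f1 had 11.52, 9.86 and 9.90. Pomca, the precursor of corticotropin that hypothalamic neurons also make, had 14.99, 12.54 and 12.46 and stayed above the background in all brains. Prolactin prl, at 11.13, 10.29 and 10.25, was above the background of brains 1 and 2 only, with a difference of 0.50 with brain 1 and of 0.13, no longer called, without it, and the receptor gene crhr1 was not highest in brain 1. The summed intensity of the list was 105673, 27362 and 30822, and without brain 1 the list had 8 of 16 genes not above the random probes and a median difference of −0.06, against 5 of 16 and 0.44 with it.

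**Figure D4:**
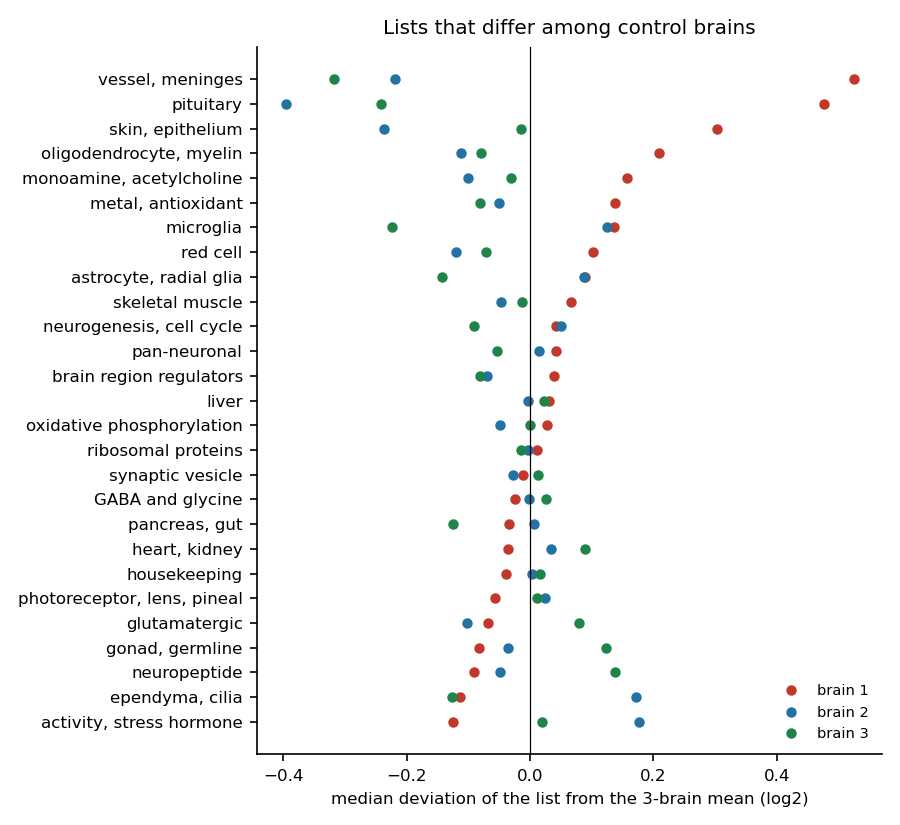
Median over the genes of each list of the log2 deviation of each brain from the mean of the 3 control brains, 1 point per brain. Brain 1 stands highest for vessel and meninges (0.52), pituitary (0.48) and skin genes (0.30), while housekeeping, ribosomal and synaptic vesicle lists lie within 0.05 of 0 in each brain.

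The 12 genes of widest range among those with a mean above the random probes are described next. A gene can meet that condition through 1 brain alone, so how often each brain was highest among them is not read as a result. The target of coch, which encodes the extracellular protein cochlin known from the inner ear, lies on chromosome 17 at 33123150 to 33128785 of Zv7 and had 15.15, 11.85 and 9.38. The cartilage collagen col9a1b had 15.11, 10.70 and 10.85, the calcium-binding s100t 15.05, 9.19 and 10.06, and s100s 15.23, 9.87 and 10.25. OTOF (2 of 3), named after the hair cell vesicle protein otoferlin, had 13.23, 8.47 and 9.04, and mia, in mammals a cartilage secreted protein, 13.52, 10.65 and 8.72. Loxl2b, a lysyl oxidase relative, had 13.64, 9.44 and 9.28, and si:ch211-243g18.2, which carries no descriptive name, 13.33, 8.84 and 8.70. All probes of coch, col9a1b, s100t, s100s, mia, OTOF (2 of 3) and loxl2b were highest in brain 1. Without brain 1 the mean differences of these genes except coch and col9a1b were below 0, and that of coch was 0.48 and no longer called, against 2.07 with it.

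The widest range of all belonged to oaz1a, ornithine decarboxylase antizyme, which limits polyamine synthesis and is usually treated as a general gene. It had 15.15 in brain 3, against 7.86 and 8.16 in brains 1 and 2, a range of 7.29. Its second target had 14.40 in brain 3, against 7.34 and 7.38. All 6 probes shared this order, with 14.07 to 15.36 in brain 3 and 6.81 to 9.98 in the other brains. The unnamed gene zgc:153118 was low in brain 2 only, with 12.10, 7.55 and 11.52, and all its probes agreed on the highest brain.

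**Figure D5:**
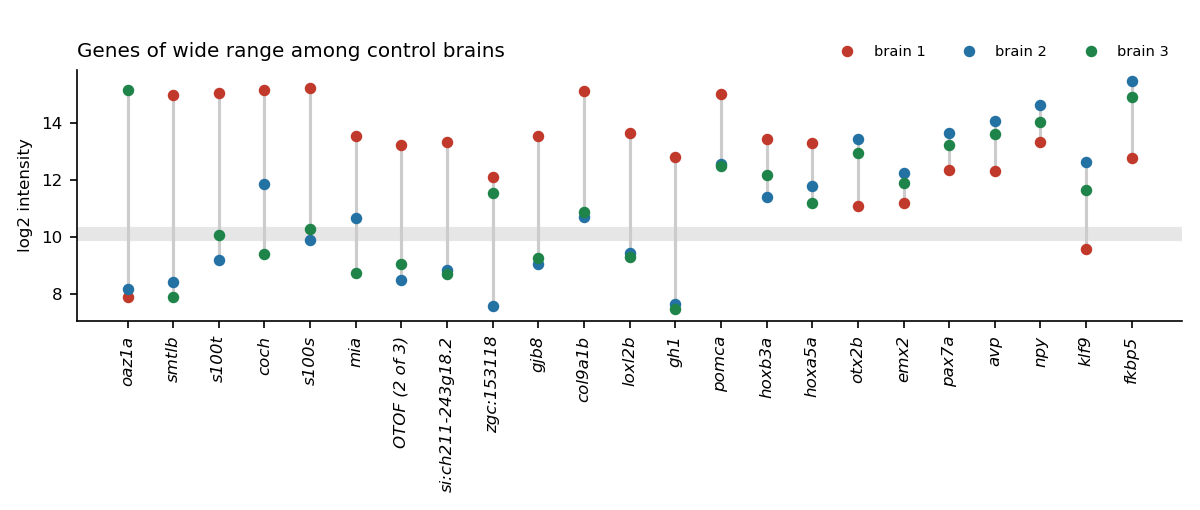
Log2 intensity in each of the 3 control brains for the 12 genes of widest range, from oaz1a to loxl2b, and for 11 further genes of the pituitary, hox, region, peptide and stress hormone lists picked after their values were seen. The grey band is the 95th percentile of the random probes on the 3 arrays. Brain 1 is highest for most genes of the left part, and lowest for otx2b through fkbp5 on the right, and neither order is read as a result. A gene on the left can have a mean above the random probes through 1 brain alone.

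Most targets were steadier than these genes. The median SD among brains was 0.14 over abundant targets, 0.23 over middling targets and 0.23 over targets not above the random probes, and a range of 1 or more was seen in 2.28%, 10.3% and 11% of them. Over all targets 3431 (8.91%) had such a range, and 1916 of these had a mean above the random probes, 7.77% of the targets so placed. Agreement of all 3 probes on the highest brain was counted over targets with 3 probes. With a mean above the random probes and a range of 1 or more, they agreed in 1307 of 1817 targets, 71.9%. The share was 29.9% of all targets with 3 probes. It was 59.9% for targets not above the random probes with such a range, and 30.8% for those above with a range under 1. The range summarizes these same probes, so higher agreement follows in part from that filter and is not read as a result. All 3 probes of a target read the same RNA sample.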

How the data were processed

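The values used are the deposited target intensities, on a linear scale, and the deposited probe intensities, among them the random probes. RMA is named in the submitters' processing notes, its version is not stated, and the number of arrays in each normalization is not given in the sources used here. The deposited standard errors and the authors' table of altered targets were not used.

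The target intensities were put on the log2 scale unfiltered and without a constant, and the 1 random feature in each target table was left out. Gene symbols came from the files and, for 2663 of 3055 RefSeq targets, from the reference table, giving 13587 symbols over 18444 targets. Where a symbol had several targets, the brightest by its mean over the 3 arrays stands for it. Coordinates are those of the files on Zv7; targets named OTTDART carry coordinates of an assembly that is not given, and none of these are printed. Differences to the log2 95th percentile of the random probes were tested against 0 with limma 3.58.1 in R 4.3.3, two-sided, with Benjamini-Hochberg adjustment over 38489 targets and a threshold of 0.05. The 3 brains share no stated pairing, and nothing says that samples came from separate fish. The p-values rest on the spread between samples only, pooled over all targets, and do not measure the spread of a single target. The background of an array was subtracted from all its targets. Differences in background between arrays therefore enter the spread of all targets together. The prior variance dominated the fit: its degrees of freedom were infinite and its SD 0.4185. In simulated data for this comparison over 38489 targets, the test recovered 1% of 100 targets shifted by 0.5, 1% at 1, 65% at 2 and 96% at 4, with 4 false among 167 calls. All other simulated targets sat at the background, whereas most targets of the arrays were called above or below it. These shares therefore do not give the recovery or the false calls in the arrays, where cfap52 was called at a difference of 0.595.

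Members and the 27 gene lists were chosen with earlier results of these data known. Of 1104 distinct list genes 681 were measured, and foxg1a, kdrl, slc18a2, sspo, cga and mki67 were among the defining genes not paired with a target. The genes named were the defining genes of each list, up to 3 further members of highest mean and up to 2 of widest range with a mean above the random probes, and over all symbols the 10 of highest mean and 12 of widest range. Other members named were chosen after their values were seen. Symbols missing for defining genes were sought among targets named after homologues, a step also added after the values were seen. The number of arrays, 3, limits the precision. Other computing used matplotlib 3.10.9, numpy 2.4.6 and pandas 2.3.3 under Python 3.11.15. Some genes that the naming rule picked are not reported here.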

Additional observations from a re-analysis of the deposited data

How the results depend on the processing

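No paired analysis was possible because only 1 group of samples was used. Settings tried were the 99th percentile of the random probes, the 1 random feature of the target tables as background, the median of a target's own probes, median centring, a further quantile normalization, each brain left out in turn, an ordinary one-sample test, only targets above the median, and, for a gene, the median over its targets. A robust limma fit, added after the data were seen, called 22282 targets above and 11446 below the random probes, and the ordinary test called 18773 above. With the random feature as background 33418 were called above, 1848 below and 20429 were abundant. With the 99th percentile 2849 were abundant, and a class of the 10% of targets with the highest means holds 3849. A range of 1 or more was met by 5483 targets with the medians of their own probes, by 1916 among targets above the random probes, and by 1199 to 2081 with 1 brain left out, where the range of 2 brains is narrower by construction. The other counts of targets stayed within 1.5 times, and centring changed no difference by construction.

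Of 200 named genes, 26 turned below the 99th percentile, by differences of OTOF (2 of 3) −0.805, aanat2 −0.925, ascl1a −0.183, cel.1 −0.789, cfap52 −0.402, dbh −0.050, dmrt1 −0.745, en2a −0.081, foxj1a −0.198, gjb8 −0.460, grna.1 −0.256, ins −0.064, krt5 −0.377, loxl2b −0.262, mia −0.086, mylpfa −0.676, nr5a1a −0.070, oaz1a −0.659, plp1a −0.013, pou1f1 −0.625, prl −0.496, si:ch211-243g18.2 −0.761, smtla −0.232, smtlb −0.631, tbp −0.917 and zgc:153118 −0.660. With the random feature as background 17 turned above it, by acta1b 1.990, apoa1a 1.812, ckma 2.099, cryba1b 2.163, crybb1 2.158, csf1ra 0.765, fabp10a 1.283, gh1 1.420, grk1a 2.022, hcrt 1.328, hoxa13a 1.467, mpeg1.1 2.150, myl7 0.801, nanos3 1.969, nphs1 0.773, otx2a 0.675 and tshba 1.490. With 1 brain left out in turn, 12 genes changed side with a limma call before or after, with ranges of OTOF (2 of 3) −1.381 to 1.039, gh1 −2.600 to 0.272, gjb8 −1.009 to 1.339, loxl2b −0.776 to 1.611, mia −0.451 to 2.156, oaz1a −1.918 to 1.521, s100s −0.078 to 2.644, s100t −0.512 to 2.460, si:ch211-243g18.2 −1.366 to 1.154, smtla −0.549 to 1.547, smtlb −1.996 to 1.761 and zgc:153118 −0.599 to 1.715; only oaz1a did so without brain 3 alone, gh1 without brain 2 or 3, and the others without brain 1. Calls were lost, with the same direction, for 7 named genes without brain 1, 7 without brain 2 and 12 without brain 3, 11 at the 99th percentile, among them c1qa (0.025), cdh5 (0.401), col1a1a (0.054), klf9 (0.222) and per1a (0.489), and 6 with the median of own probes. A lost call did not always come with a smaller difference. Without brain 3, col9a1b stood at 2.97 against 2.164 with all 3 brains, mia at 2.156 against 0.911 and loxl2b at 1.611 against 0.735. Smaller differences there included those of grna.1 (0.739 against 0.741) and klf9 (1.161 against 1.219), and tshba stood at −0.362. With the median over the targets of a gene, the called genes aif1l (−0.331) and sparc (−1.766) turned below. A further 36 of the 200 named genes were counted as moved under this setting, and 162 as the same. Among those moved, apoeb, fli1, cd59b, comtb and gad1b went from abundant to middling. Their abundant class therefore rests on the choice of the brightest target. In each case the cause was not tested.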
